A study of Sus scrofa with 10 samples.

Results

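Messages of the mitochondrial ribosomal proteins were followed in liver RNA of male pigs, in 5 samples with the phenotype high growth and fatness and 5 samples of its low counterpart, called high and low below. The members are the rows of the deposited expression table whose identifier carries a pig gene symbol starting with MRPL or MRPS and whose mean over the 10 libraries is at least 1 RPKM (read counts scaled to gene length and to library depth). Members numbered 44 among 25009 identifiers, 30 named for the large subunit (MRPL) and 14 for the small subunit (MRPS). Subunits go by these names throughout. All 44 identifiers with such a symbol met the minimum, so none was lost to it. RefSeq lists 77 MRPL and MRPS symbols for the pig, and the 33 of them with no identifier matched by name were not analysed here.

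Both groups share the sex label male and the age 175, given without a unit. Tissue was frozen in liquid nitrogen at slaughter, RNA integrity numbers lay between 7.1 and 8.1, and 1 library was made per sample, per the labels' protocols, with a kit that does not mark strand. The labels state no breed, genotype, litter or diet. They leave unsaid that the samples are separate animals, and p-values cover only the variation among them, which may be technical. A library is named below by its group and a number that only tells samples apart.

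The mitochondrial ribosome is built in the matrix from ribosomal RNA encoded by mitochondrial DNA and from proteins encoded in the nucleus, made in the cytosol and imported. It translates the few messages of mitochondrial DNA, which encode membrane subunits of the respiratory chain and of ATP synthase. Its small subunit binds and decodes the message, and its large subunit joins amino acids and releases the chain through a tunnel that opens at the inner membrane. Some of its proteins descend from the bacterial ribosome and others are found in mitochondria only.

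RPKM summed to between 539327 and 567220 per library, and the depth of each library relative to high replicate 1, read from the steps of the lowest values, ran from 0.747 to 1.05, while the absolute depth is unknown. Hepatocyte markers were abundant in every library, with albumin (ALB) between 22922 and 52025 RPKM, and muscle markers summed to at most 0.1 RPKM. Transcripts of the nervous system stood out in high replicates 1 and 5, where the astrocyte gene GFAP had 3.66 and 4.22 RPKM and at most 0.35 RPKM elsewhere. Over the 10931 tested genes, those averaging 1 RPKM or more, the first principal component held 42.9% of the variance and set high replicate 3 (score 37.2), low replicate 2 (32.6) and high replicate 1 (28.6) against low replicate 4 (-40.5).

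Every member was present in every library at a moderate level, well below the messages of the cytosolic ribosome. Mean levels ran from 4.22 RPKM for MRPL19 to 52.4 RPKM for MRPL24, a 12.4-fold range, with a median of 15.9 RPKM. In all, 33 members had a mean between 5 and 25 RPKM, 10 lay above and 1 below. The median level was 14.3 RPKM over the large subunit and 17.6 RPKM over the small subunit. For comparison the median was 44.8 RPKM over 50 nuclear genes of the respiratory chain and 366 RPKM over 23 genes of the cytosolic ribosome, although the latter have near-identical copies in the genome, among which reads may be split.

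**Figure D1:**
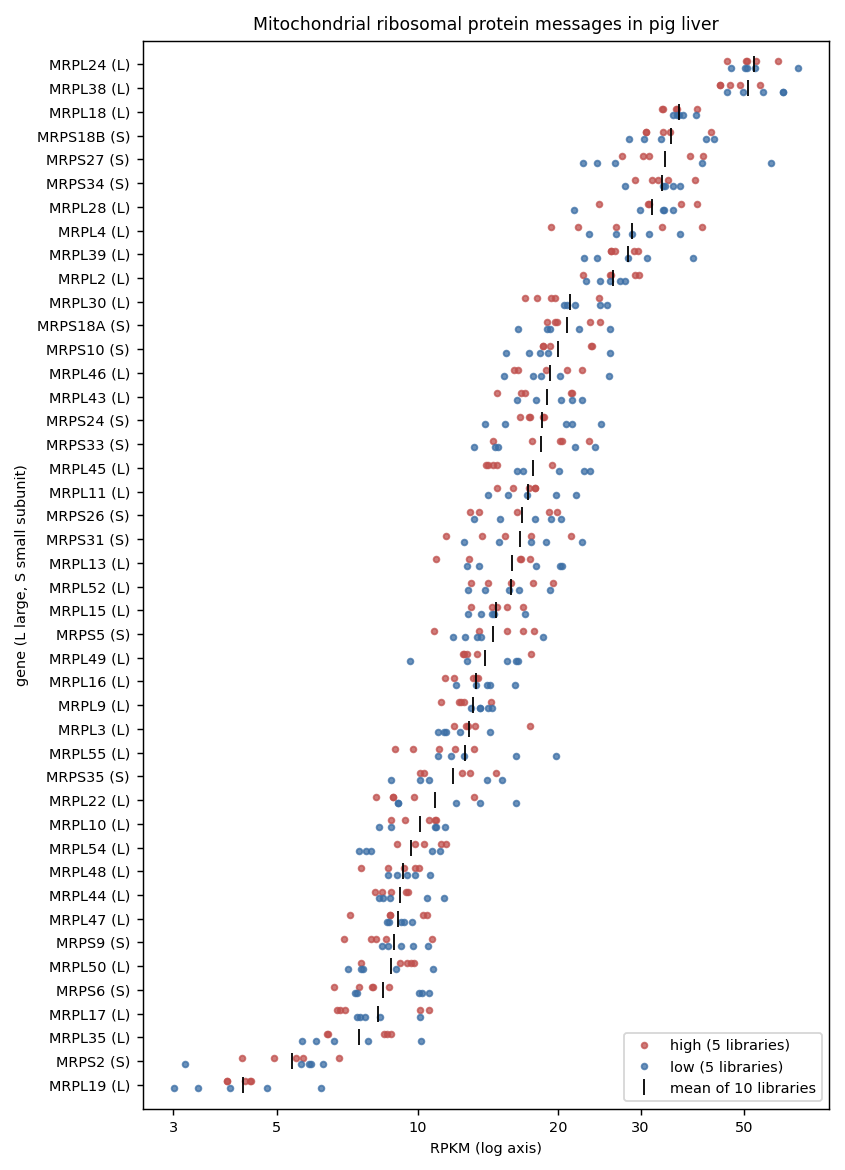
RPKM (log axis) of each of the 44 members, ordered by mean level, with 5 high libraries in red, 5 low libraries in blue and the mean of all 10 as a bar. The means run from 4.22 RPKM (MRPL19) to 52.4 RPKM (MRPL24), and in every gene the red and blue points overlap.

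MRPL24 and MRPL38 headed the order of the levels. MRPL24 (ENSSSCG00000006469), whose bacterial counterpart sits near the exit of the tunnel, had 50.5, 52.9, 45.9, 50.8 and 58.9 RPKM in high replicates 1 to 5 and 52.7, 50.3, 65.2, 50.6 and 46.7 in low replicates 1 to 5. MRPL38 (ENSSSCG00000017196), a mitochondria-specific protein of the large subunit, had 44.3, 54.0, 44.3, 48.9 and 46.6 RPKM in high replicates 1 to 5 and 46.0, 60.6, 60.4, 49.7 and 54.9 in low replicates 1 to 5. The ranges of these 2 genes overlapped, and the lowest library of either lay above the highest library of MRPL18.

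Below them MRPL18 (ENSSSCG00000004047), which has a bacterial counterpart, had 33.5, 35.6, 33.3, 35.9 and 39.7 RPKM in high replicates 1 to 5 and 37.0, 35.2, 39.4, 36.3 and 35.8 in low replicates 1 to 5. As deposited it was the steadiest member, with its highest library 1.19 times its lowest. MRPS18B (ENSSSCG00000029425), a relative of MRPS18A, had 34.7, 30.8, 33.5, 30.9 and 42.4 RPKM in high replicates 1 to 5 and 33.2, 41.5, 43.1, 30.5 and 28.3 in low replicates 1 to 5. It exceeded MRPL18 in 5 libraries (3 of high and 2 of low) and lay below it in the other 5. At 33.9, 33.4 and 31.7 RPKM the next in order were MRPS27, MRPS34 and MRPL28, and their libraries overlapped with one another and with those of MRPS18B. MRPL28 has a bacterial counterpart, and MRPS34 is known from humans, where its loss causes a mitochondrial encephalopathy.

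At the bottom MRPL19 (ENSSSCG00000021007), which has a bacterial counterpart, had 4.40, 3.91, 4.27, 3.90 and 4.38 RPKM in high replicates 1 to 5 and 3.97, 6.21, 4.76, 3.39 and 3.01 in low replicates 1 to 5. MRPS2 (ENSSSCG00000005759), also with a bacterial counterpart, had 5.68, 5.49, 6.80, 4.94 and 4.21 RPKM in high replicates 1 to 5 and 6.26, 5.91, 5.86, 5.63 and 3.18 in low replicates 1 to 5. The lowest library of both genes was low replicate 5. MRPL35 (ENSSSCG00000021746) had 8.47, 6.43, 8.77, 6.39 and 8.60 RPKM in high replicates 1 to 5 and 6.05, 10.15, 7.82, 5.67 and 6.62 in low replicates 1 to 5, and MRPL17 (ENSSSCG00000024693) had 10.1, 7.00, 10.6, 6.72 and 6.83 RPKM in high replicates 1 to 5 and 7.71, 10.1, 7.54, 8.31 and 7.40 in low replicates 1 to 5. Both have bacterial counterparts, both exceeded their own means in low replicate 2 and in high replicates 1 and 3, and the range of each overlapped with those of its neighbours in the order.

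Other members of the large subunit lay between these ends. Among those with bacterial counterparts near the catalytic centre or along the tunnel, MRPL2 had a mean of 26.1 RPKM (range 22.6 to 29.7), MRPL4 28.8 (19.3 to 40.5) and MRPL16 13.3 (11.4 to 16.2). MRPL47, the counterpart of a bacterial protein beside the tunnel exit, had 9.09 RPKM (7.18 to 10.5). At the base of the stalk that binds translation factors, MRPL10 had 10.1 RPKM (8.26 to 11.4) and MRPL11 17.2 (14.1 to 21.8). The means of these 6 genes thus ran from 9.09 to 28.8 RPKM. MRPL9, MRPL13 and MRPL15, further members with bacterial counterparts, had means of 13.1, 15.9 and 14.7 RPKM.

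Of the mitochondria-specific proteins of the large subunit, MRPL39 had 28.2 RPKM (22.7 to 38.9), MRPL46 19.2 (15.3 to 25.7) and MRPL43 18.9 (14.8 to 22.5). MRPL52 had 15.8 RPKM (12.8 to 19.5), MRPL49 13.9 (9.64 to 17.5) and MRPL48 9.32 (7.57 to 10.7). MRPL44 (ENSSSCG00000016232), which has a fold like that of ribonuclease III and is mutated in a human cardiomyopathy, had 9.54, 8.41, 8.76, 8.09 and 9.44 RPKM in high replicates 1 to 5 and 8.71, 11.4, 8.27, 8.45 and 10.5 in low replicates 1 to 5. It stayed within a narrow band in high and stood highest in low replicates 2 and 5.

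Members named for the small subunit ran from 5.40 RPKM (MRPS2) to 34.9 RPKM (MRPS18B). Those with bacterial counterparts were MRPS10 at 19.9 RPKM, MRPS24 at 18.5 (13.9 to 24.7), MRPS5 at 14.5 (10.8 to 18.6), MRPS9 at 8.90 (6.96 to 10.8), MRPS6 at 8.45 and MRPS2. Mitochondria-specific were MRPS33 at 18.4 RPKM, MRPS26 at 16.7 (12.9 to 20.3), MRPS31 at 16.6 (11.5 to 22.4) and MRPS35 at 11.9 (8.76 to 15.1). MRPS27, MRPS34 and MRPS18B were counted with them. The second relative, MRPS18A, at 20.9 RPKM (16.4 to 25.8), is named for the small subunit, but its protein sits in the large subunit of the mammalian ribosome. It is counted with the small subunit here, since every count, median and sum by subunit goes by name. The median level was 13.9 RPKM over the 24 members counted as having bacterial counterparts and 17.2 RPKM over the 20 others. MRPS18A and MRPS18B are counted with the others, although both are related to a bacterial ribosomal protein.

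The comparison of high with low asked whether livers of pigs that diverge in growth and fatness differ in these messages. No member passed the threshold, as no gene of the table did, and the groups overlapped in every member. The median log2 fold change (high minus low) was -0.027 over the 44 members, within a range of -0.35 to 0.20, where the median of all tested genes was -0.0049. Directions are counted here and below by the mean of log2(RPKM + 1). The higher mean was in high for 18 members (40.9%) and in low for 26, and 48.8% of all tested genes had the higher mean in high. For MRPS27, MRPL19 and MRPL17 the mean RPKM had the opposite direction. By name of subunit, high had the higher mean in 10 of 30 members of the large and in 8 of 14 of the small. In liver pieces fewer cells of a type and less RNA per cell cannot be told apart. Markers of T and NK cells, 5 of 6 matched, all had the higher mean in low, with sums of 10.0 to 23.3 RPKM in the high libraries and 16.2 to 36.2 in the low ones. The 3 matched macrophage markers of 6 did too, with sums of 194 to 244 and 199 to 357 RPKM. Of the 5 T and NK cell markers 3 had an unadjusted p under 0.05 in limma, beside 2.28% of all tested genes in that direction. Among other tested markers, high had the higher mean in 3 of 6 of hepatocytes, 2 of 2 of endothelium and 1 of 1 of adipocytes. It did in 0 of 2 of stellate cells, 0 of 2 of red blood cells and 0 of 1 of bile ducts. None of these markers was at 0 in all libraries, and their part in the differences was not tested.

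None of the 44 had an adjusted p under 0.05 (limma on log2(RPKM + 1), Benjamini-Hochberg over all 10931 genes), beside 0.0% of all tested genes. The smallest adjusted p among the members was 0.961. At an unadjusted p under 0.05 there was 1 member (2.27%), with the higher mean in low, beside 4.55% of all genes in either direction and 2.28% with the higher mean in low. With libraries weighted by their quality, an alternative fit, 0 members passed and 5 had an unadjusted p under 0.05, as did 864 of all 10931 genes (497 without weights). Groups did not overlap in 0 of the 44 members and in 0.805% of all tested genes. Low replicate 5 had much weight in the count of directions: without it 9 of 44 members had the higher mean in high, 6 in the large and 3 in the small subunit, beside 39.7% of all tested genes. With weighted libraries 8 of 44 did, beside 45.1% of all tested genes. The median log2 fold change was above 0 without high replicate 4 (0.0071) or without low replicate 2 (0.016).

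**Figure D2:**
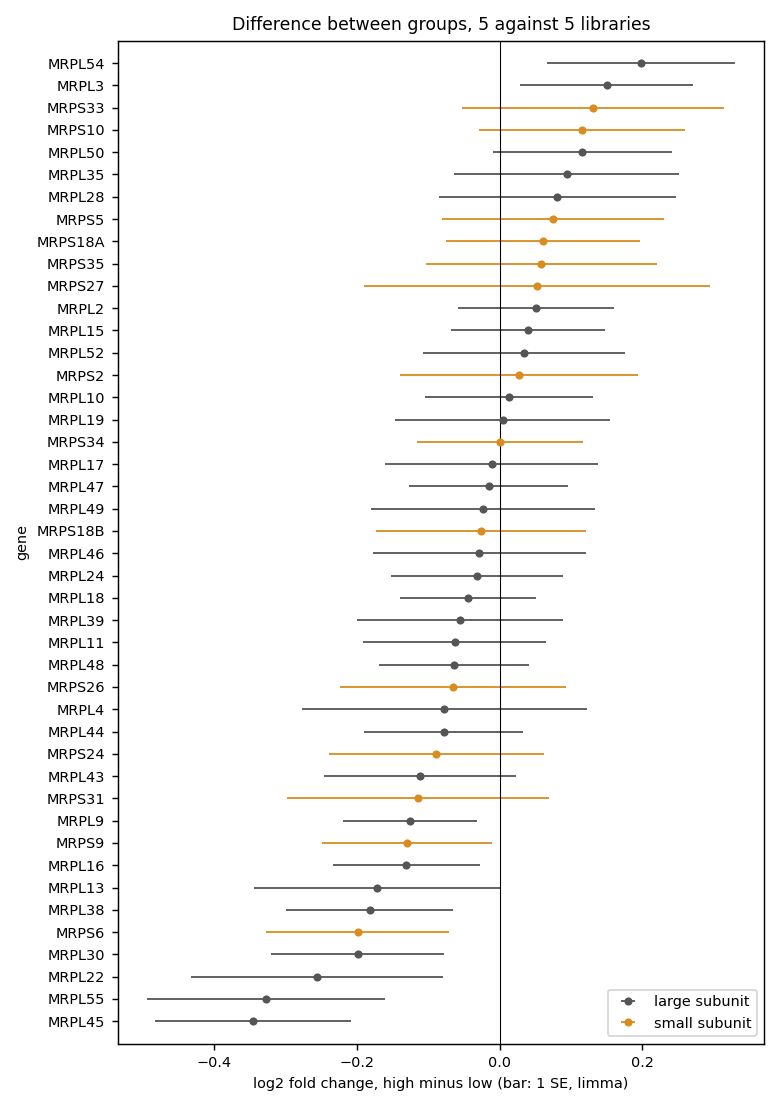
Log2 fold change of each member, high minus low, with 1 standard error from limma (5 against 5 libraries). Members named for the large subunit are in grey and those named for the small subunit in orange. The values run from -0.35 (MRPL45) to 0.20 (MRPL54), and no member passed the threshold.

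Among members with the higher mean in low, MRPL45 came first by p. MRPL45 (ENSSSCG00000023263), which anchors the large subunit to the inner membrane at the tunnel exit, had 14.01, 14.5, 14.8, 14.2 and 19.4 RPKM in high replicates 1 to 5 and 16.8, 22.7, 23.4, 20.1 and 16.4 in low replicates 1 to 5. In high only replicate 5 exceeded 15 RPKM, in low all 5 libraries did, and the groups overlapped through high replicate 5. The means were 15.4 ± 2.28 RPKM (high) and 19.9 ± 3.24 RPKM (low), given here and below as mean ± SD over 5 samples, with a log2 fold change of -0.35 (SE 0.14) and an adjusted p of 0.961 in limma. Without high replicate 5 the log2 fold change was -0.43 and the adjusted p 0.959 in limma.

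MRPL55 (ENSSSCG00000029050), a mitochondria-specific protein of the large subunit, had 8.93, 9.76, 12.0, 11.11 and 13.2 RPKM in high replicates 1 to 5 and 11.8, 11.08, 12.6, 19.8 and 16.2 in low replicates 1 to 5. Low replicates 4 and 5 were the highest, and the other 3 low libraries lay within the range of high. Its log2 fold change was -0.33 (SE 0.17), with an adjusted p of 0.961 in limma, and -0.21 without low replicate 4. MRPL22 (ENSSSCG00000017065), whose bacterial counterpart lines the tunnel, had 8.85, 9.84, 8.16, 8.87 and 13.2 RPKM in high replicates 1 to 5 and 9.08, 12.1, 13.6, 16.2 and 9.09 in low replicates 1 to 5. Its low group spanned nearly its whole range, and its log2 fold change of -0.26 (SE 0.18) ran from -0.36 to -0.15 when 1 library was left out.

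MRPL30 (ENSSSCG00000008183), with a bacterial counterpart, had 16.9, 19.3, 19.6, 18.0 and 24.5 RPKM in high replicates 1 to 5 and 21.7, 20.6, 24.6, 25.5 and 20.9 in low replicates 1 to 5. All low libraries were above all high libraries but replicate 5, and the log2 fold change was -0.20 (SE 0.12). For MRPL38, described above for its level, the log2 fold change was -0.18 (SE 0.12). MRPS6 (ENSSSCG00000026981), with a bacterial counterpart, had 6.63, 7.98, 7.48, 8.01 and 8.70 RPKM in high replicates 1 to 5 and 7.41, 10.6, 10.1, 7.36 and 10.24 in low replicates 1 to 5. Here low replicates 2, 3 and 5 stood above all high libraries and low replicates 1 and 4 within them, and the log2 fold change was -0.20 (SE 0.13).

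In the other direction no log2 fold change exceeded 0.20. MRPL54 (ENSSSCG00000024242), a mitochondria-specific protein of the large subunit, had 11.5, 9.88, 9.03, 10.3 and 11.2 RPKM in high replicates 1 to 5 and 11.2, 10.7, 7.75, 7.96 and 7.48 in low replicates 1 to 5. Low replicates 3, 4 and 5 lay below every high library and low replicates 1 and 2 among them, and the log2 fold change was 0.20 (SE 0.13) with an adjusted p of 0.961 in limma. MRPL3 (ENSSSCG00000011179), whose bacterial counterpart reaches toward the catalytic centre and which is mutated in a human cardiomyopathy, had 11.9, 13.3, 12.7, 12.8 and 17.4 RPKM in high replicates 1 to 5 and 14.3, 12.3, 11.5, 11.08 and 11.4 in low replicates 1 to 5. High replicate 5 stood alone at the top, and the log2 fold change of 0.15 (SE 0.12) became 0.06 without it.

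MRPL50 (ENSSSCG00000027974), a mitochondria-specific protein, had 9.81, 9.18, 9.67, 7.57 and 9.49 RPKM in high replicates 1 to 5 and 7.58, 10.8, 8.98, 7.64 and 7.10 in low replicates 1 to 5, with low replicate 2 the highest of all and the other 4 low libraries below 4 of the 5 high ones. MRPS10 (ENSSSCG00000001638), with a bacterial counterpart, had 23.7, 18.6, 23.5, 18.5 and 19.2 RPKM in high replicates 1 to 5 and 19.0, 25.8, 18.3, 17.3 and 15.5 in low replicates 1 to 5. MRPS33 (ENSSSCG00000013470), a mitochondria-specific protein, had 23.2, 14.5, 20.3, 17.5 and 20.1 RPKM in high replicates 1 to 5 and 13.2, 24.0, 14.6, 14.8 and 21.7 in low replicates 1 to 5. In MRPS10 high replicates 1 and 3 and low replicate 2 were the highest 3 libraries, and in MRPS33 they were among the highest 4, with low replicate 5. The log2 fold changes were 0.12 (SE 0.13) for MRPL50, 0.12 (SE 0.14) for MRPS10, 0.13 (SE 0.18) for MRPS33 and 0.094 (SE 0.16) for MRPL35, each within 1 standard error of 0. Leaving out 1 library moved them between 0.064 (without low replicate 5) and 0.20 for MRPL50, 0.048 (without low replicate 5) and 0.22 for MRPS10, 0.041 (without low replicate 1) and 0.24 for MRPS33, and 0.023 (without low replicate 4) and 0.21 for MRPL35, each highest without low replicate 2. With weighted libraries MRPL35 and MRPL50 had the higher mean in low (-0.056 and -0.011).

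Single libraries differed as follows. The ratio of the highest to the lowest library was 1.57 in the median member, 1.19 in MRPL18 and 2.52 in MRPS27. The standard deviation of log2(RPKM + 1) over the 10 libraries had a median of 0.21 over the members and 0.26 over all tested genes, and 35 of 44 members lay below the latter. Against the 5723 tested genes with a mean level within the members' range, whose median was 0.25, 34 of 44 members lay below. Scaling each library to its median gene gave 0.19 over the members and 0.24 over all genes, with MRPL10 then the steadiest member at 0.099.

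MRPS27 (ENSSSCG00000023818), a protein with pentatricopeptide repeats, varied most of all members as deposited, with a standard deviation of 0.40. With libraries scaled to their median gene MRPL55 came first with 0.36, before MRPS27 with 0.35 and MRPL4 with 0.34. It had 38.4, 30.3, 31.3, 27.4 and 40.7 RPKM in high replicates 1 to 5 and 26.4, 57.0, 40.6, 22.6 and 24.2 in low replicates 1 to 5. Low replicate 2 stood far above, and the low group alone held both the highest and the lowest library. MRPL4 (ENSSSCG00000013656), whose bacterial counterpart lines the tunnel, followed with 0.32 and ran the other way between libraries. It had 19.3, 40.5, 22.1, 33.4 and 26.6 RPKM in high replicates 1 to 5 and 28.8, 26.6, 31.3, 36.5 and 23.2 in low replicates 1 to 5, lowest in high replicates 1 and 3 and highest in high replicate 2 and low replicate 4.

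At the steady end as deposited, after MRPL18 with 0.08, came MRPL9 (ENSSSCG00000028343) with 0.11, MRPL48 (ENSSSCG00000014829) with 0.13 and MRPL2 (ENSSSCG00000001658) with 0.13. MRPL9 had 11.2, 12.4, 12.2, 12.6 and 14.3 RPKM in high replicates 1 to 5 and 13.6, 14.4, 14.1, 13.04 and 13.6 in low replicates 1 to 5. MRPL48 had 7.57, 9.86, 9.34, 8.66 and 10.1 RPKM in high replicates 1 to 5 and 8.64, 9.89, 9.49, 10.7 and 9.04 in low replicates 1 to 5. MRPL2 had 29.7, 25.8, 29.2, 22.6 and 25.9 RPKM in high replicates 1 to 5 and 25.8, 27.1, 24.6, 27.8 and 22.9 in low replicates 1 to 5. With libraries scaled to their median gene the steadiest were MRPL10, MRPL16, MRPL2 and MRPL18, and MRPL48 had 0.15. In MRPL9, MRPL48 and MRPL2, as deposited, no library was more than 1.41 times another, and their groups overlapped.

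As deposited, the family tended to be highest in low replicate 2 and lowest in low replicate 5. The first library held the highest value of 20 of 44 members (45.5%) and the highest value of 24.9% of all tested genes, and the second held the lowest value of 16 members (36.4%) and of 24.4% of all tested genes. Of the members 40 of 44 were higher in low replicate 2 than in low replicate 5, beside 74.4% of all tested genes. These counts depend on the scaling. The median of all tested genes was shifted the same way, by 0.12 in low replicate 2 and -0.16 in low replicate 5 (log2, deviation from each gene's own mean), where the members were shifted by 0.21 and -0.22. With each library scaled to its median gene the counts fell to 6 and 2 of 44, beside 11.7% and 9.51% of all tested genes. In low replicate 2, 28 of 44 members still stood above their own mean under that scaling. Their median deviation there was 0.061, below only that in low replicate 3 (0.13). Low replicate 5 then held the highest value of 8 members, beside 12.5% of all tested genes, and 21 of 44 stood above their own mean there, so its low position was not kept. Hepatocyte markers (6 of 8 matched), mostly albumin, summed to 27549 RPKM in low replicate 2 and 58176 in low replicate 5. The markers differed unevenly between these libraries. CYP2E1, a cytochrome P450 gene of hepatocytes, had 114 and 1127 RPKM, ASGR1 262 and 382, and CPS1 330 and 323. ALB, TF and TTR were also lower in low replicate 2. Macrophage markers summed to 357 and 199 RPKM there, and the part of these markers in the library pattern was not tested.

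**Figure D3:**
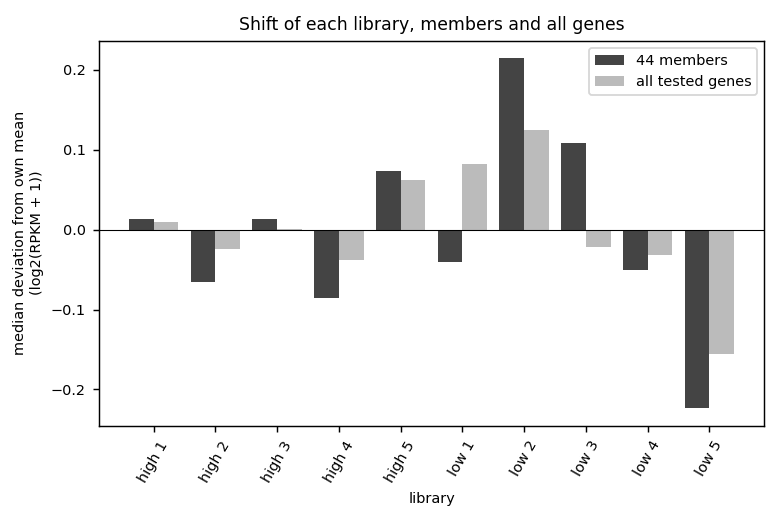
Median deviation of the 44 members (dark) and of all tested genes (light) from each gene's own mean in log2(RPKM + 1), for each library. Both are highest in low replicate 2 (0.21 and 0.12) and lowest in low replicate 5 (-0.22 and -0.16), while they part in low replicate 3 (0.11 and -0.02) and low replicate 1 (-0.04 and 0.08).

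Relative to the median of all genes in the same library, the members were highest in low replicate 3, by 0.13, and lowest in low replicate 1, by -0.12, both in the low group, with the 5 high libraries between -0.05 and 0.01. After scaling to the median gene low replicate 3 held the highest value of 10 members (22.7%), beside 7.06% of all genes, and low replicate 1 the lowest value of 10 (22.7%), beside 8.18% of all genes. In low replicate 3, 33 of 44 members stood above their own mean under that scaling, and in low replicate 1 7 did. Both libraries carry the low label, so the extremes of the family relative to all genes lay within 1 group.

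The members did not move as 1 block between libraries. Over the 946 pairs of members, Pearson's r across the 10 libraries had a median of 0.25 and was above 0 in 71.2%, beside a median of 0.10 and 58.2% over all pairs of tested genes. Pairs share their libraries, so these values describe the libraries at hand and carry no test. With libraries scaled to their median gene, the median was 0.10 and 58.1% were above 0, beside -0.0007 and 49.9% over all pairs. As deposited, the median was 0.39 within the small subunit, 0.19 within the large subunit and 0.28 between them. MRPL52 stood most apart, with r below 0 to 33 of the other members, followed by MRPL55 with 31.

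Along the first component the members were divided in shares not far from those of all genes, so the counts describe these libraries and nothing particular to the family. The libraries at its one end, high replicates 1 and 3 with low replicate 2, were all above low replicate 4 in 22 of 44 members, beside 43.3% of all tested genes. All 3 were below it in 10 members (22.7%), beside 31.2% of all tested genes. The first set held 8 members of the small subunit and 14 of the large, among them MRPS10, MRPL46, MRPL15, MRPL35 and MRPS27. The second held 9 members of the large subunit, MRPL4, MRPL13, MRPL18, MRPL22, MRPL24, MRPL30, MRPL48, MRPL49 and MRPL55, and only MRPS9 of the small. Hepatocyte markers summed, mostly through albumin, to 27295 RPKM in high replicate 3 and 27549 in low replicate 2. The sum was 38741 in high replicate 1 and 55794 in low replicate 4. The matched markers other than CPS1 were each lower in all 3 libraries than in low replicate 4. CPS1 had 609 RPKM in high replicate 3, 546 in high replicate 1, 330 in low replicate 2 and 375 in low replicate 4. The part of these markers was not tested. Scaled to the median gene, the sets held 19 and 12 members, with 7 and 1 of the small subunit, beside 38.1% and 37.4% of all tested genes.

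**Figure D4:**
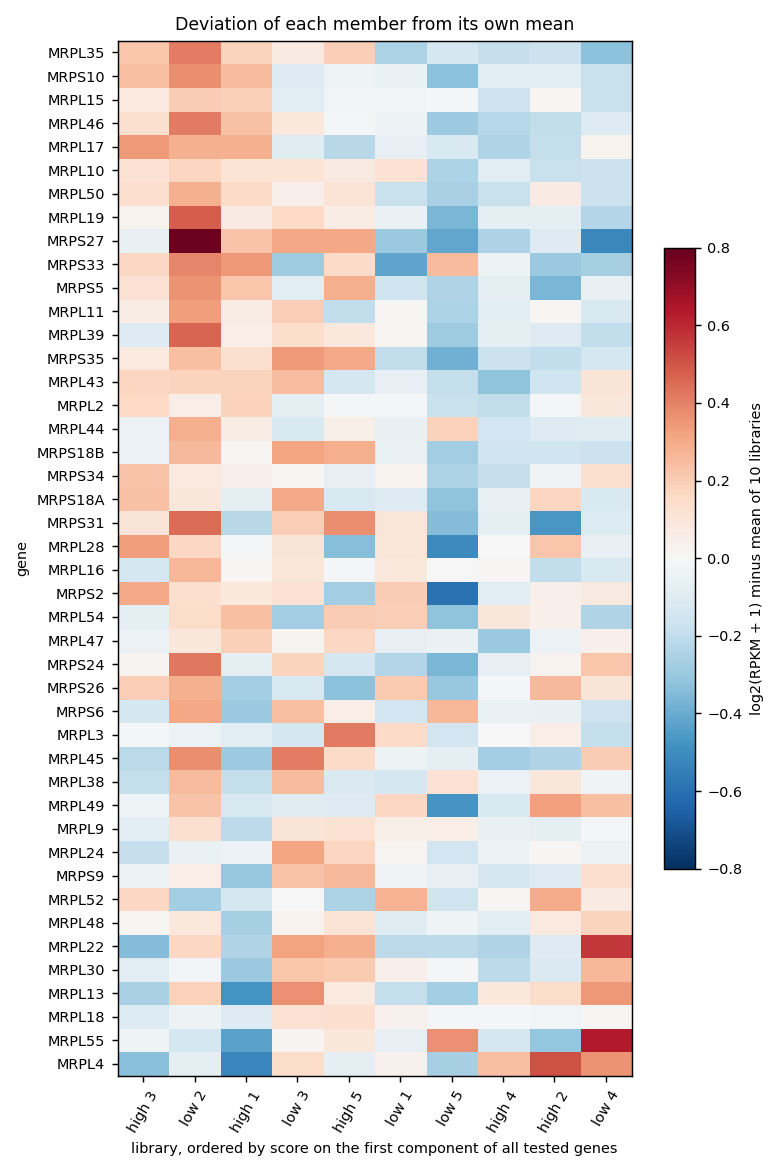
Deviation of each member from its own mean in log2(RPKM + 1), red above and blue below, with libraries ordered by their score on the first principal component of all tested genes and members by their correlation with it. MRPL35 and MRPS10 at the top are high in high replicate 3, low replicate 2 and high replicate 1, and MRPL4 and MRPL55 at the bottom are high in low replicate 4.

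From the first set, MRPL46 (ENSSSCG00000005105), a mitochondria-specific protein, had 22.5, 16.4, 20.9, 16.1 and 18.8 RPKM in high replicates 1 to 5 and 18.4, 25.7, 20.2, 17.6 and 15.3 in low replicates 1 to 5. MRPL15 (ENSSSCG00000030578), with a bacterial counterpart, had 16.8, 14.8, 15.5, 12.98 and 14.4 RPKM in high replicates 1 to 5 and 14.4, 17.0, 13.7, 12.8 and 14.6 in low replicates 1 to 5. Both were highest in low replicate 2 and high replicate 1. MRPL13 (ENSSSCG00000005996), of the second set, had 11.0, 17.4, 12.9, 16.6 and 16.6 RPKM in high replicates 1 to 5 and 13.6, 17.9, 20.4, 20.2 and 12.8 in low replicates 1 to 5, lowest in high replicate 1 and highest in low replicates 3 and 4. The groups overlapped in all 3 genes.

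The members summed to 796 ± 31.0 RPKM (high) and 824 ± 89.0 RPKM (low), or 0.144% and 0.148% of all RPKM. A ratio of sums within a library does not depend on scaling between libraries. Subunits were summed by name, so MRPS18A counts with the small subunit. The sums cover 30 members of the large and 14 of the small subunit. Their ratio thus depends on how many genes were matched and is no ratio of levels per gene. The median level per gene was lower in the large subunit (14.3 RPKM) than in the small (17.6 RPKM). The large subunit sum was 1.95, 2.28, 1.91, 2.17 and 1.98 times the small subunit sum in high replicates 1 to 5 and 2.24, 1.83, 2.10, 2.33 and 2.28 times in low replicates 1 to 5. It was lowest in low replicate 2 and high replicates 3 and 1 and highest in low replicate 4, and the groups overlapped. Without MRPS27 the ratio ran from 2.15 to 2.61 and was again lowest in high replicate 3, low replicate 2 and high replicate 1, but highest in high replicate 2.

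The 13 messages of mitochondrial DNA, which this ribosome translates, varied more. Their sum was 69126 ± 10415 RPKM (high) and 79728 ± 21981 RPKM (low), from 55590 RPKM in low replicate 2 to 114419 in low replicate 4. Their sum was 81.4, 105, 75.2, 103 and 72.1 times that of the members in high replicates 1 to 5 and 87.3, 59.3, 86.8, 142 and 117 times in low replicates 1 to 5, a 2.40-fold range. Low replicate 2, with the highest sum of the members, had the lowest sum of these messages, and the groups overlapped. The sum over nuclear genes of the respiratory chain was between 3.48 and 4.29 times that of the members, a 1.23-fold range.

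**Figure D5:**
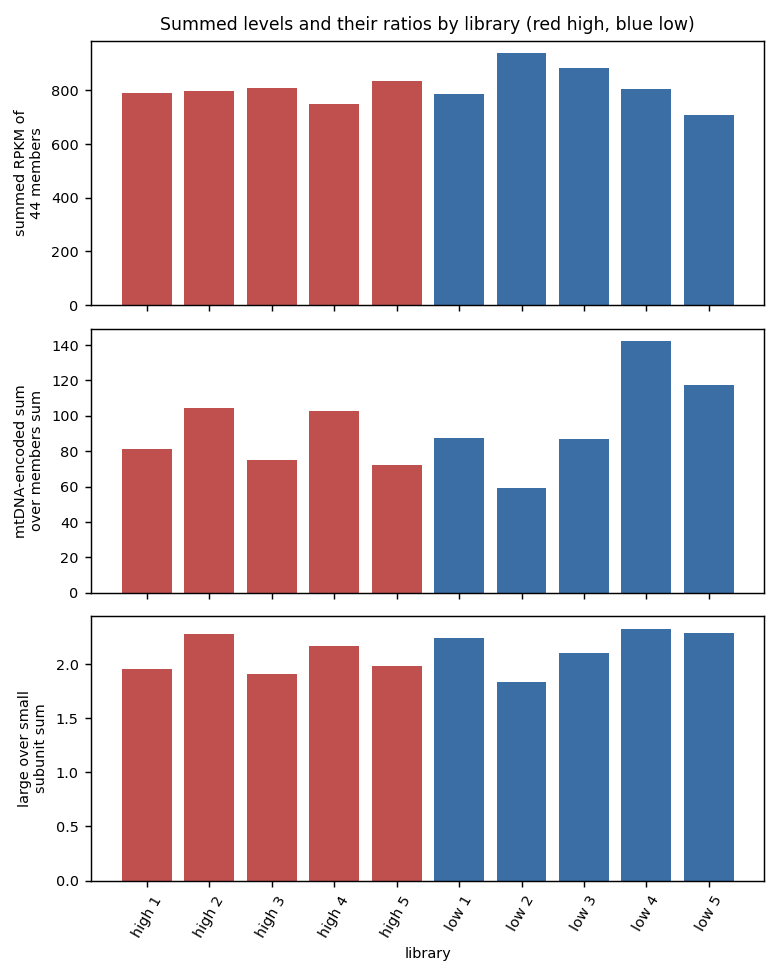
Summed RPKM of the 44 members, the sum of the 13 mitochondrially encoded messages divided by it, and the summed large subunit divided by the summed small subunit, for each library with high in red and low in blue. Subunits go by name, so MRPS18A is summed with the small subunit. The sums cover 30 members of the large and 14 of the small subunit. The second panel spans 59.3 to 142 and the third 1.83 to 2.33, with low replicate 2 lowest and low replicate 4 highest in both.

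Genes that build, feed and use this ribosome gave no call either. Among 4 matched genes of 6 further ribosomal or associated proteins with other names, 1 had the higher mean in high. DAP3 (ENSSSCG00000006507), a GTP-binding protein of the small subunit, had 15.8, 14.4, 13.8, 14.02 and 16.4 RPKM in high replicates 1 to 5 and 15.2, 19.7, 17.5, 15.5 and 15.5 in low replicates 1 to 5. CHCHD1, another small subunit protein, had 13.1 ± 0.985 RPKM (high) and 14 ± 0.917 RPKM (low), and OXA1L (ENSSSCG00000002042), the insertase that receives the new chains, had 32.8, 32.1, 31.2, 28.8 and 38.0 RPKM in high replicates 1 to 5 and 30.2, 27.1, 26.5, 31.4 and 23.6 in low replicates 1 to 5. High replicate 5 was the highest for OXA1L, and 2 low libraries lay within the range of the others in high. The log2 fold changes were -0.15 (SE 0.11) for DAP3 and 0.23 (SE 0.12) for OXA1L.

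Of 27 assembly factors listed 19 were tested, and of these 4 had the higher mean in high and 15 in low, with a median log2 fold change of -0.05 and 0 with an unadjusted p under 0.05. MTERF3 had 6.47 ± 0.744 RPKM (high) and 7.34 ± 1.36 RPKM (low), the pseudouridine synthase gene RPUSD4 1.54 ± 0.335 RPKM (high) and 1.90 ± 0.599 RPKM (low) and FASTKD2 5.77 ± 1.43 RPKM (high) and 4.92 ± 1.20 RPKM (low). Of 10 translation factors 7 had the higher mean in high, with a median of 0.02. GFM2, a factor of ribosome recycling, had 4.72 ± 1.71 RPKM (high) and 3.45 ± 1.52 RPKM (low), GFM1, the elongation factor, 12.1 ± 2.07 RPKM (high) and 11.0 ± 0.444 RPKM (low), and the release factor gene MTRF1L 4.94 ± 0.880 RPKM (high) and 5.57 ± 0.376 RPKM (low). In these lists as in the members, the groups overlapped in each gene named.

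Of 14 mitochondrial aminoacyl-tRNA synthetases and amidotransferase subunits, 7 had the higher mean in high. VARS2, which charges valine, had 4.83 ± 0.718 RPKM (high) and 6.05 ± 0.870 RPKM (low), with an unadjusted p of 0.0453 in limma (adjusted p 0.961). IARS2, for isoleucine, had 11.0 ± 2.17 RPKM (high) and 8.59 ± 2.41 RPKM (low), and PARS2, for proline, 3.09 ± 0.391 RPKM (high) and 2.66 ± 0.861 RPKM (low). YARS2 had a mean of 0.26 RPKM and was not tested.

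Of 17 genes that keep and transcribe mitochondrial DNA or handle its RNA, 11 had the higher mean in high, with a median of 0.06. MTERF1 (ENSSSCG00000015309), a termination factor of mitochondrial transcription, had 4.10, 5.28, 4.65, 5.14 and 5.31 RPKM in high replicates 1 to 5 and 6.31, 5.94, 5.95, 5.85 and 5.43 in low replicates 1 to 5. It was the only gene named from these lists whose groups did not overlap, as in 0.805% of all tested genes, with a log2 fold change of -0.23 (SE 0.10) and an adjusted p of 0.961 in limma. TFB2M, needed to start transcription, had 6.47 ± 1.26 RPKM (high) and 5.17 ± 1.31 RPKM (low), and TEFM, an elongation factor, 6.37 ± 0.926 RPKM (high) and 5.23 ± 1.503 RPKM (low).

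Of 6 regulators tested, 4 had the higher mean in high. NRF1 (ENSSSCG00000016566), a transcription factor known to bind promoters of nuclear genes for mitochondrial proteins, had 2.79, 2.51, 2.60, 2.17 and 2.07 RPKM in high replicates 1 to 5 and 2.74, 3.82, 3.18, 3.38 and 2.47 in low replicates 1 to 5. Low replicates 2, 3 and 4 were above every high library and the others overlapped, with a log2 fold change of -0.26 (SE 0.12) and an unadjusted p of 0.0460 in limma (adjusted p 0.961). The coactivator gene PPARGC1A had 4.84 ± 1.06 RPKM (high) and 3.97 ± 1.26 RPKM (low), and GABPB1, a subunit of an ETS family factor, 3.25 ± 0.258 RPKM (high) and 3.13 ± 0.316 RPKM (low).

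Among the 13 messages of mitochondrial DNA 11 had the higher mean in low, with a median of -0.16, and the smallest p belonged to ND3, ND1 and COX3. ND3 had 2465 ± 269 RPKM (high) and 2955 ± 664 RPKM (low), ND1 3182 ± 448 RPKM (high) and 3801 ± 1001 RPKM (low) and COX3 14617 ± 2551 RPKM (high) and 17898 ± 5458 RPKM (low). Their share of all RPKM, 10.1% to 20.2%, was highest in low replicate 4. Of 50 nuclear genes of the respiratory chain, assembly factors included, 27 had the higher mean in high, with a median of 0.0045. UQCRC2, a core subunit of the cytochrome bc complex, had 41.0 ± 7.60 RPKM (high) and 30.7 ± 8.57 RPKM (low), NDUFAF5 3.26 ± 0.487 RPKM (high) and 4.19 ± 0.906 RPKM (low) and NDUFB1 16.8 ± 2.58 RPKM (high) and 21.6 ± 5.55 RPKM (low). For the cytosolic ribosome high had the higher mean in 5 of 23 genes, with a median of -0.039. RPL38 had 235 ± 23.6 RPKM (high) and 291 ± 44.3 RPKM (low), RPL29 246 ± 13.6 RPKM (high) and 285 ± 44.4 RPKM (low) and RPS16 503 ± 25.6 RPKM (high) and 566 ± 45.7 RPKM (low). No gene of these lists passed over all genes tested.

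Some members share their place in the genome with another gene. In RefSeq's annotation of Sscrofa11.1, another build than that of the files, 12 of 44 members overlap another protein-coding gene. Without strand, reads from the overlap cannot be told apart. For MRPS27, the most variable member as deposited, the overlapping gene PTCD2 had 4.49, 4.06, 4.28, 4.74 and 4.96 RPKM in high replicates 1 to 5 and 4.27, 5.77, 3.79, 4.52 and 3.42 in low replicates 1 to 5. PTCD2 lay far below MRPS27 in every library. For MRPL43 the overlapping gene TWNK, which encodes the mitochondrial DNA helicase, had a mean of 12.8 RPKM, and for MRPL49 the gene FAU had 30.03 RPKM. MRPS6, MRPL19, MRPL2, MRPL9, MRPL28, MRPL47, MRPS2, MRPS18B and MRPS26 overlap a gene too.

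The authors' deposited table gave a p under 0.05 for 2 of 44 members (4.55%), beside 5.0% of the tested genes. They were MRPL45, with fold 1.3 and p 0.02 in the authors' deposited table, and MRPL54, with fold -1.16 and p 0.04 there. In 41 of 44 members the fold in the authors' deposited table was positive where mean log2(RPKM + 1) was higher in low, or negative where it was higher in high. In the others, MRPS27, MRPL19 and MRPL17, its sign followed mean RPKM. A positive fold there thus went with the higher mean RPKM in low in every member.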

How the data were processed

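One deposited table held RPKM per gene and library, per the file headers. It also held a signed fold from the authors and a p-value from the authors, whose test is not stated. The submitters' processing notes name the build Sscrofa10.2. The sources used here name no aligner, counting tool or annotation. Some deposited RPKM values (624, in 92 genes) had a dot between groups of digits, which was removed.

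Pig symbols were found for 11779 of 25009 identifiers. The 10931 genes averaging 1 RPKM or more entered a limma fit (version 3.58.1, R 4.3.3) on log2(RPKM + 1), with trend, two-sided, high minus low, over all 10 libraries without covariates, adjusted by Benjamini-Hochberg with a threshold of 0.05. This scale understates the change of low genes. The fit was tested on simulated data. Absolute depth is unknown, so no counting interval is given, and relative depth rested on 4 to 71 genes per library.

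The members and lists were chosen with earlier results of these data known. Members with values in every library were the 6 with the smallest p in each direction, the 4 at each end of level and of spread, and MRPL3, MRPL44 and DAP3 whatever their result (5 more such names had no matched identifier). MRPL13, MRPL15, MRPL46, MTERF1, NRF1 and PTCD2 were printed in full after their values were seen, as were the counts by library, the sets against low replicate 4 and the split by bacterial origin. Per other list the 3 genes with the smallest p were named. DDX18, a nucleolar helicase, was taken out of the assembly list. No promoter or protein sequence was used here.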

Additional observations from a re-analysis of the deposited data

Results flagged for a closer look

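In 6 of the 88 groups of 5 values (44 members in high and in low), 1 library stood apart from the other 4. The gap had to exceed 0.71 of the group's range, which independent, normally spread values give in about 1 of 20 groups. The groups share their 10 libraries, and the share over all tested genes is not given, so the count carries no test. MRPL3 had 17.4 RPKM in high replicate 5, with the other high libraries between 11.9 and 13.3 RPKM. MRPL45 had 19.4 RPKM in the same library, with the others between 14.01 and 14.8 RPKM. MRPL49 had 17.5 RPKM in high replicate 2 and 12.5 to 13.4 in the others. MRPL50 had 7.57 RPKM in high replicate 4, below the 9.18 to 9.81 RPKM of the others. In low, MRPS2 had 3.18 RPKM in low replicate 5 and 5.63 to 6.26 elsewhere, and MRPS5 had 18.6 RPKM in low replicate 2 and 11.9 to 13.7 elsewhere. High replicate 5, like high replicate 1, carries transcripts of the nervous system, whose part in these values was not tested. High replicate 1 had the lowest value of high for MRPL45 (14.01 RPKM) and for MRPL3 (11.9 RPKM).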

How the results depend on the processing

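No member passed the threshold in limma under any of the 20 alternatives run (pseudocounts of 0.1 and 0.5, no filter or a minimum of 5 RPKM, 3 scalings, no trend, weighted libraries, without high replicates 1 and 5, and each library left out). High had the higher mean in 18 of 44 members, a count that ran from 9 to 25 when 1 library was left out, and that of the large subunit from 6 to 15 and of the small subunit from 3 to 10. With weighted libraries these counts were 8, 5 and 3, and the log2 fold changes of MRPL35 and MRPL50 turned to -0.056 and -0.011. Without high replicates 1 and 5 the count was 15. The median log2 fold change ran from -0.084 to 0.016 with 1 library left out. The count of members highest in low replicate 2, 20 as deposited, was 10 with quantile normalization and 6 with libraries scaled to the median gene, and that of members lowest in low replicate 5, 16 as deposited, was 4 and 2. With 1 library left out they ran from 20 to 22 and from 16 to 18. These 2 counts were chosen after seeing the data. The cause of the other shifts was not tested. No paired analysis was possible because replicate numbers were given in accession order and pair no samples. The absolute depth is unknown, so the counting error of low members such as MRPL19 and MRPS2 could not be given.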

Other observations

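Outside the family, the genes whose log2(RPKM + 1) ran closest to the mean standardised profile of the 44 members over the 10 libraries were PTPRA, OAZ2, DYNLL2, CAB39L, an identifier with no symbol (ENSSSCG00000030054) and PHB1, with Pearson's r between 0.93 and 0.97. They were picked as the highest of all tested genes, so the values describe these libraries and carry no test. PTPRA, a receptor tyrosine phosphatase gene, had 6.87, 6.56, 7.01, 6.5 and 7.65 RPKM in high replicates 1 to 5 and 7.03, 8.66, 7.49, 6.75 and 6.03 in low replicates 1 to 5. PHB1, which encodes a prohibitin of the inner mitochondrial membrane, had 36.1, 34.5, 40.2, 31.7 and 40.0 RPKM in high replicates 1 to 5 and 35.5, 46.8, 39.3, 31.7 and 28.5 in low replicates 1 to 5. Both were highest in low replicate 2 and lowest in low replicate 5. With libraries scaled to their median gene the r of PTPRA was 0.82, in place 24 of the order, and that of PHB1 was 0.67, in place 237.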
